A study of Mus musculus with 4 samples.

Results

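The genes described here are 687 of the 24594 rows of a gene count table from mouse embryonic stem cells (ESCs). They are the genes on chromosome 8 (mm10) that had at least 10 counts in each of 4 RNA-seq libraries. The table holds 1175 chromosome 8 genes, of which 707 reached that count. From these, 14 genes were left out by name and 6 more because they code for ribosomal proteins or for subunits of respiratory complexes (symbols starting with Rpl, Rps, Nduf or Cox). Of the 687 genes, 667 are protein-coding and 16 are long noncoding RNAs. The 5 genes just inside the limit, with a lowest count of 10, had log2 fold changes between -1.20 (Pdlim3) and 0.43 (Il27ra), and the 11 genes just outside, with a lowest count of 9, lay between -0.88 (Il12rb1) and 0.37 (Mt4).

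Poly(A) RNA was sequenced from untreated ESCs of 129S6/SvEvTac background, either wild-type (WT) or with a knockout of Snf2l. Snf2l, listed as Smarca1, encodes a nucleosome-remodeling ATPase of the ISWI type. There were 2 libraries of each genotype, which the labels call duplicates of a single batch, so every error given here measures the spread between these libraries only. The study's methods describe each mutant line as 1 clone made by Cas9 editing, and genotype and clone therefore cannot be told apart. The libraries held between 13771642 and 15608803 counts. For Smarca1 the WT libraries held 620 and 626 counts, against 37 and 31 in the knockout. All 8 ESC markers that were read, among them Pou5f1, Sox2 and Nanog, had counts in every library and together reached between 4506 and 5124 CPM (counts scaled to the size of the library).

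In a diploid cell most autosomal genes are transcribed from both copies, and the amount of a transcript is known to follow the number of gene copies for many genes, while feedback or limiting inducers hold other transcripts at their level. Cultured mouse ESC lines are known to gain or lose whole chromosomes, and chromosome 8 is one that is often gained. DNA copy number was not measured in these libraries. The chromosome was chosen because its transcripts were shifted between these genotypes, that is, it was chosen by the log2 fold changes of its genes in this same contrast. The shift is therefore a description, and no test of it is given.

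The chromosome 8 genes took a smaller part of the RNA in the knockout. They held 5.71% and 5.79% of all counts in the WT libraries and 4.12% and 4.11% in the knockout libraries, so that the mean share in the knockout was 71.4% of that in WT. The groups did not overlap. The median log2 fold change of the 687 genes (knockout over WT, edgeR) was -0.50, which is 70.8% of the WT level. For scale, a ratio of 2 to 3 is a log2 value of -0.585 and a ratio of 1 to 2 is -1. The median of the 12361 genes of other chromosomes with the same minimum count was 0.01.

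The shift was present in nearly every gene. Of the 687 genes, 652 (94.9%) had a log2 fold change below 0, against 47.7% of the genes of other chromosomes. In 607 genes both knockout values were below both WT values, as they were in 25.3% of all 13840 genes tested. In 13 genes both were above, as they were in 25.2% of all genes tested. The libraries overlapped in the other 67. At an adjusted p-value under 0.05 (edgeR, quasi-likelihood test, Benjamini-Hochberg adjustment over all genes), 435 genes were called lower and 4 higher, beside 5.21% and 4% of all genes tested. Because this contrast chose the chromosome, these counts are printed as a description. At the threshold of the study (an adjusted p-value under 0.01 with more than a 2-fold difference), 8 genes were lower and 0 higher, beside 0.419% of all genes tested that were lower.

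The same shift was seen in each pair of libraries. The 4 ratios of a knockout to a WT library had medians between -0.51 and -0.47, with between 642 and 649 of the 687 genes below 0. The ratio of the WT libraries to each other had a median of 0.03, and that of the knockout libraries a median of 0.01. All 4 ratios between genotypes therefore showed the shift, but they reuse the same libraries and are not independent.

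**Figure D1:**
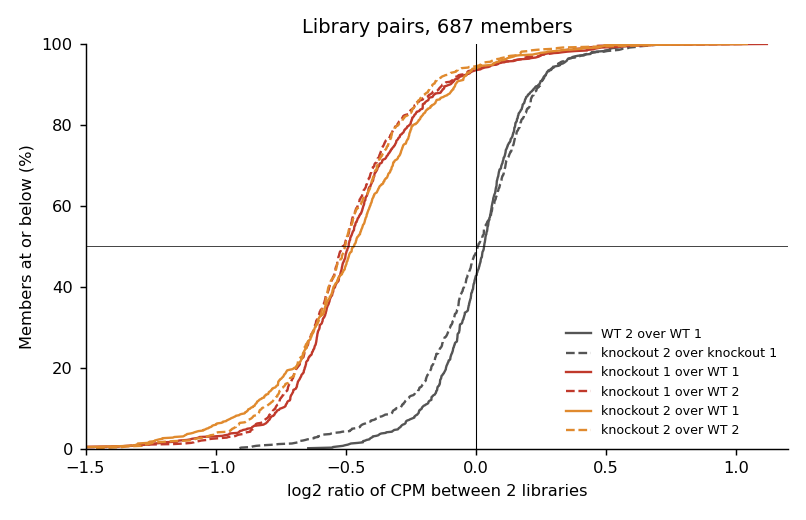
Cumulative share of the 687 chromosome 8 genes (y axis, %) at or below a log2 ratio of CPM (x axis) for the 6 pairs of libraries. The 4 curves of a knockout over a WT library lie together with medians between -0.51 and -0.47, and the 2 gray curves of replicates of a genotype cross 50% near 0.

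Around this median the genes were about as tightly grouped as the genes of other chromosomes were around theirs. The quartiles of the 687 log2 fold changes were -0.62 and -0.35, an interquartile range (IQR) of 0.27, and the tenth and ninetieth percentiles were -0.74 and -0.16. On the 19 other chromosomes that were compared, the IQR ranged from 0.23 to 0.31. Within 0.25 of the median lay 512 genes (74.5%), against 74.0% of the genes of other chromosomes. Between single libraries, the IQR was 0.21 for the ratio of the WT libraries to each other and 0.28 for that of the knockout libraries. The 4 ratios of a knockout to a WT library had IQRs between 0.30 and 0.37, all above both replicate ratios. The same was seen for the genes of other chromosomes. There the 4 ratios had IQRs between 0.30 and 0.41, beside 0.24 for the WT and 0.29 for the knockout replicate ratio.

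The spread depended on the expression level. The 687 genes were split into 3 equal groups by mean count. In the lowest group, with mean counts from 11 to 238, the median log2 fold change was -0.44 and the IQR 0.46. In the middle group, up to a mean count of 956, the median was -0.49 and the IQR 0.23. In the highest group the median was -0.53 and the IQR 0.20. The replicate ratios narrowed in the same order, with IQRs of 0.36 and 0.35 in the lowest group and 0.14 and 0.22 in the highest for the WT and the knockout libraries, respectively. The genes of other chromosomes at matched counts had IQRs of 0.43, 0.24 and 0.19. Their medians were 0.05, 0.003 and -0.002, so part of the trend in the medians was also present there. The minimum count also shaped the lowest group. The 47 chromosome 8 genes that were tested but missed 10 counts in some library had a median of -0.65. Of the 35 chromosome 8 genes with a log2 fold change of 0 or more, 26 were in the lowest group, 6 in the middle and 3 in the highest. The share that was called lower went from 26.2% in the lowest group to 89.96% in the highest.

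**Figure D2:**
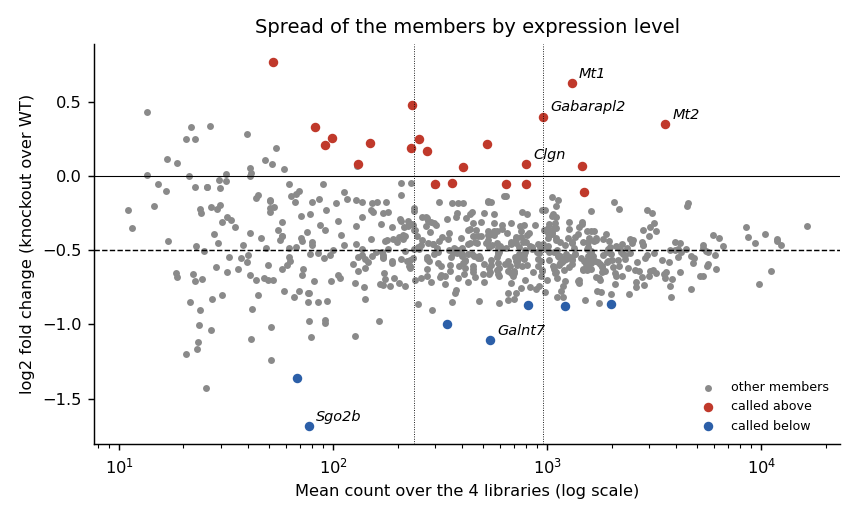
log2 fold change (knockout over WT, y axis) against the mean count over the 4 libraries (x axis, log scale) for the 687 genes. The dashed line is the median of -0.50, dotted lines split the genes into 3 equal groups, and colored points are the 22 genes called above (red) and the 7 called below (blue) the median shift. The cloud narrows from an IQR of 0.46 on the left to 0.20 on the right.

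The most abundant genes followed the shift, with 1 exception. Per kb of gene length, the 5 highest in WT were Cfdp1, Mt2, Calr, Kars and Psmd7. Cfdp1, which codes for a craniofacial development protein that acts on chromatin, had 5499 and 6607 counts in WT and 4432 and 4960 in the knockout. Calr, which codes for the calcium-binding chaperone calreticulin, had 12109 and 14122 counts in WT and 10273 and 10678 in the knockout. Kars, the lysyl-tRNA synthetase, went from 725 ± 28.1 CPM to 531 ± 7.69 CPM (SD, n = 2 each). Psmd7, a subunit of the proteasome lid, went from 486 ± 21.5 CPM to 364 ± 29.1 CPM. The log2 fold changes of these 4 genes lay between -0.46 and -0.42 (SE 0.08 to 0.09). Only Mt2 among the 5 was higher in the knockout. The gene at the median itself was Cyld, a deubiquitinase, with 389 and 399 counts in WT and 312 and 288 in the knockout, and its neighbours in the ranking were Gdf1 and Pla2g15.

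The shift was found along the whole chromosome. In windows of 5 Mb, the median log2 fold change was below 0 in all 26 windows, and each window held at least 1 gene called lower. Among the 25 windows with 5 or more genes it ranged from -0.68 (chromosome 8, 45000001 to 50000000, 19 genes) to -0.28 (35000001 to 40000000, 7 genes). The most crowded window (70000001 to 75000000) held 90 genes with a median of -0.37, and 36 of them were called lower. Spearman's rho between gene order and log2 fold change was 0.02 over the 687 genes. Between a gene and the next one it was 0.08 over 686 neighbouring pairs, and 0.07 over the 603 pairs whose spans did not overlap. Neighbours share a library and, where they overlap, may share reads, so these values are descriptions. The 35 genes with a value of 0 or more were spread over 16 of the 26 windows.

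**Figure D3:**
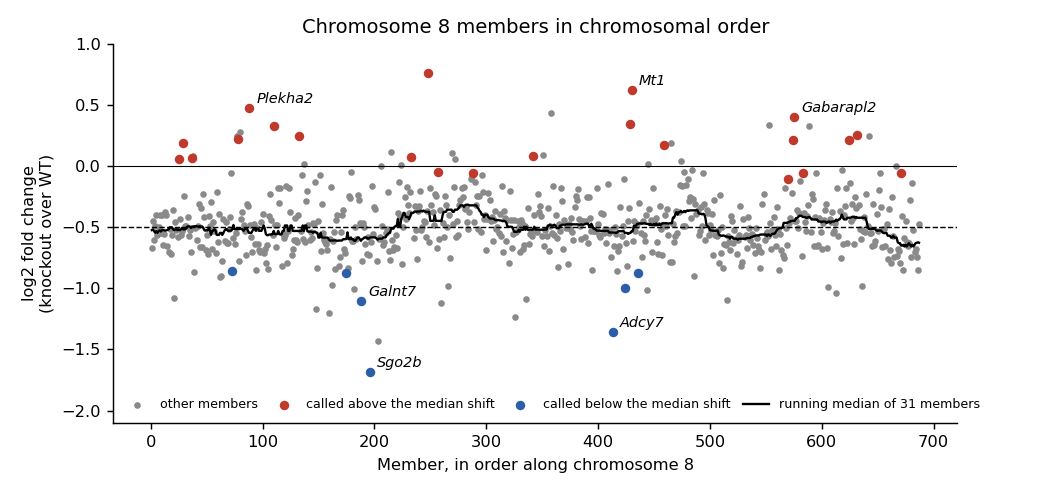
log2 fold change (knockout over WT, y axis) of the 687 genes in their order along chromosome 8 (x axis). Red and blue points were called above and below the median shift (dashed line at -0.50), and the black line is a running median of 31 genes, which stays below 0 throughout.

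By rank correlation, base composition and length moved with the fold change more than gene order did. A rank correlation with order reads only a steady trend along the chromosome, not differences between windows. Over the 665 genes with a transcript sequence (96.8%), Spearman's rho between GC content and log2 fold change was 0.32. By terciles of GC content, the median was -0.56 in the lowest (37.7% to 50.2%), -0.51 in the middle and -0.42 in the highest (55.6% to 67.2%). The crowded window with the median of -0.37 had a median GC content of 57.6%, against 52.9% over all 665 genes, and the window with the median of -0.68 had 47.6%. The relation was also read on other chromosomes and between replicates. On other chromosomes rho was 0.21 between GC content and log2 fold change (11939 genes), and among the chromosome 8 genes it was 0.38 between GC content and the ratio of the WT libraries to each other, but 0.07 for the ratio of the knockout libraries. Over the same 665 genes, rho between gene length and log2 fold change was -0.24, beside -0.38 for the WT replicate ratio and -0.42 for the knockout replicate ratio. The part of GC content and length in the spread was not tested.

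How far a gene's own distance from the median recurred was read from pairs of libraries with none in common. Pearson's r over the 687 genes was 0.58 between the ratio of the libraries numbered 1 and the ratio of those numbered 2, and 0.43 when the numbers were crossed. In the highest tercile of mean count the values were 0.79 and 0.28. In the lowest tercile they were 0.49 and 0.48. The agreement between independent ratios thus depended on which libraries were paired, and more so in the highest tercile than in the lowest.

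To list the genes that left the common shift, the median was entered as an offset for chromosome 8 genes and the edgeR test was repeated over all genes. With this fit 22 genes (3.20%) were called above the shift and 7 (1.02%) below it, beside 3.2% and 1.57% of all genes tested, and 658 were called on neither side. In this fit the shares are near those of all genes. The number called depended on the model and on single libraries. It was 70 without knockout replicate 1 and 16 without WT replicate 1, in place of 29. The fit was repeated with 12 changes (another scaling, filter, tool or model, or 1 library left out). In each of these 12 other fits, 11 of the 29 genes were called again, among them Mt1, Mt2, Gabarapl2, Tmem231, Plekha2, Dusp4, Clgn and Sap18b above the shift and Galnt7 and Sgo2b below it.

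The metallothionein genes Mt1 and Mt2 were both called higher in the knockout. Metallothioneins are small cysteine-rich proteins that bind zinc and copper, and their genes are known to be induced by metals, glucocorticoids and oxidative stress. Mt1 (8: 94178883 to 94180327) had 877 and 1087 counts in WT and 1498 and 1739 in the knockout. The neighbour Mt2 (8: 94172618 to 94173567) had 2755 and 3279 counts in WT and 3846 and 4376 in the knockout. For both genes each knockout library lay above each WT library. The log2 fold changes were 0.62 (SE 0.11) for Mt1 and 0.35 (SE 0.09) for Mt2, which are 1.12 and 0.85 above the chromosome median. Mt1 was called higher in all 12 other fits and Mt2 in 8 of them. The genes are similar in sequence, so reads could be split between them.

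Mt2 and Mt1 are neighbours among the 687 genes, and the 13 genes that were higher in both knockout libraries hold 2 such pairs. Metal induction of these genes is known to act through short metal-response elements. The 250 bases before the start of Mt2 (chr8:94172368-94172617, plus strand, GRCm38.p6, RefSeq) are printed because Mt2 is the most abundant gene that left the shift. Capitals mark matches to TGCACNC or TGCGCNC on either strand, with no overlap between matches.

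Mt2: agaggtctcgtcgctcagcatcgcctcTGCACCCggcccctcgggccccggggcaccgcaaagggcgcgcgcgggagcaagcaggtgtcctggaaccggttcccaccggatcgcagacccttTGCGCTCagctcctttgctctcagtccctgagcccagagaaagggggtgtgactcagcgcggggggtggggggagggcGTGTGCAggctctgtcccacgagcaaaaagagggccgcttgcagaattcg

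This window held 3 matches. At least 3 matches were found in 1.26% of the 32851 windows of the same length in the promoter table, and at least 1 match in 21.4%. The window given for Mt1 (chr8:94178839-94179088) held 1 match. It starts before the Mt1 gene and reaches into its annotated span, since it belongs to a transcript with a later start. A match says only that these letters are present.

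The other stress-inducible genes did not share the position of the metallothioneins. The list held 8 of the genes, with a median of -0.30, of which 2 were called higher and 3 lower. Hmox1, the inducible heme oxygenase, was called lower (-0.61), as were Nqo1, a quinone reductase (-0.43), and the immediate early gene Ier2 (-0.44). Gdf15, a stress-induced cytokine, had 42 and 56 counts in WT and 35 and 31 in the knockout, a log2 fold change of -0.67 (SE 0.24) that was not called. Egln1, an oxygen-sensing prolyl hydroxylase, had 277 and 312 counts in WT and 292 and 316 in the knockout (-0.06, SE 0.12) and was called above the shift, but in only 5 of the 12 other fits.

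The second adjacent pair was Tmem231 (8: 111912007 to 111933813) and Gabarapl2 (8: 111940703 to 111952915). Gabarapl2, an ATG8-family protein of autophagosomes, had 724 and 858 counts in WT and 1154 and 1084 in the knockout. The value of 0.40 (SE 0.10) on the log2 scale was called higher here and in 10 of the 12 other fits. Tmem231, a membrane protein of the ciliary transition zone, had 450 and 479 counts in WT and 616 and 541 in the knockout, a log2 fold change of 0.21 (SE 0.11) that was called above the shift but not above 0. In both genes the knockout libraries lay above the WT libraries. The related gene Map1lc3b, also of the ATG8 family, had a log2 fold change of -0.37.

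Plekha2, an adaptor protein that binds a phosphoinositide, was the remaining gene called higher. It had 191 and 182 counts in WT and 258 and 300 in the knockout (log2 fold change 0.48, SE 0.14). The number of genes called higher was 2 in place of 4 without WT replicate 1 (Mt1 and Plekha2), and also 2 without WT replicate 2, with Mt1 again among them.

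Several signalling genes were near or above their WT level. Dusp4, a phosphatase of MAP kinases, had 202 and 240 counts in WT and 293 and 271 in the knockout (0.25, SE 0.13). Irs2, an insulin receptor substrate, had 214 and 203 counts in WT and 284 and 228 in the knockout (0.19, SE 0.14). Efnb2, the ligand ephrin-B2, had 364 and 395 counts in WT and 421 and 430 in the knockout (0.06, SE 0.11). Adgra2, an adhesion G protein-coupled receptor, had 66 and 74 counts in WT and 97 and 92 in the knockout (0.33, SE 0.17). All 4 were called above the shift and none above 0. Their CPM did not overlap between genotypes in Dusp4, Efnb2 and Adgra2, while in Irs2 they overlapped.

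Other genes that were called above the shift belong to the endoplasmic reticulum, lysosome and membranes. Clgn, a chaperone related to calnexin, had 687 and 808 counts in WT and 822 and 872 in the knockout (0.08, SE 0.10). Galns, a lysosomal sulfatase, had 71 and 102 counts in WT and 110 and 111 in the knockout (0.25, SE 0.17). Ap3m2, an adaptor subunit of vesicle transport, and Cyba, a subunit of NADPH oxidase, had values of 0.22 and 0.21. For 3 further genes the counting leaves the value uncertain. Sap18b is a near copy of Sap18 on another chromosome, Gm45929 shares its last part with Mef2b, and Atp11a overlaps the noncoding gene Gm15350. Atp11a, a phospholipid flippase, had 1796 counts in knockout replicate 1 and 1304 in replicate 2 beside 1323 and 1426 in WT, and its sign turned among the other fits (-0.16 to 0.27). The remaining 5 genes, Bcar1, Cdyl2, Bst2, Egln1 and Pgpep1, were called above the shift with values between -0.11 and -0.04.

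Of the 35 genes with a log2 fold change of 0 or more, 17 were called above the shift and 18 were not. Most of the uncalled ones had few counts, such as Il27ra, with 12 and 10 counts in WT and 21 and 11 in the knockout. Il34, a cytokine of the macrophage lineage, had 20 and 25 counts in WT and 31 and 30 in the knockout. It was among the 13 genes in which both knockout libraries lay above both WT libraries.

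At the lower end, 14 genes were below -1. Sgo2b, a paralog of the cohesin protector shugoshin 2, had 114 and 117 counts in WT and 28 and 49 in the knockout. On the log2 scale this is -1.68 (SE 0.23), or -2.16 without knockout replicate 2, and reads could be shared with Sgo2a. Galnt7, a glycosyltransferase that extends O-linked glycans, was the most abundant of the 14, with 690 and 749 counts in WT and 359 and 359 in the knockout. The log2 fold change of -1.11 (SE 0.10) stayed between -1.13 and -1.08 in the 12 other fits. Adcy7, an adenylyl cyclase, had 85 and 107 counts in WT and 41 and 39 in the knockout (-1.36, SE 0.20). These genes lay below the shift in both knockout libraries.

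The 8 genes past the study's threshold were Sgo2b, Adcy7, Galnt7, Pou4f2, Smpd3, Hhip, Ccl25 and Adgrg1. Pou4f2, a neuronal POU transcription factor, had 65 and 76 counts in WT and 30 and 34 in the knockout (-1.24, SE 0.22). Hhip, a binding protein that restrains Hedgehog ligands, had 102 and 108 counts in WT and 65 and 41 in the knockout (-1.09, SE 0.21). Ccl25, a chemokine, had 148 and 188 counts in WT and 79 and 91 in the knockout (-1.08, SE 0.16). Smpd3, a neutral sphingomyelinase, and Adgrg1, an adhesion receptor, had values of -1.10 and -1.02. Of the 8, only Sgo2b, Adcy7 and Galnt7 were also called below the shift. The count of 8 became 20 without knockout replicate 1 and 14 without WT replicate 2.

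Genes with larger counts were also called below the shift. Dctd, the dCMP deaminase, had 1429 and 1630 counts in WT and 941 and 847 in the knockout (-0.88, SE 0.09). Arl2bp and Slc20a2, a partner of the small GTPase ARL2 and a phosphate transporter, had values of -0.87 and -0.86. These 3 genes were called again in only 7 or 8 of the 12 other fits.

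**Figure D4:**
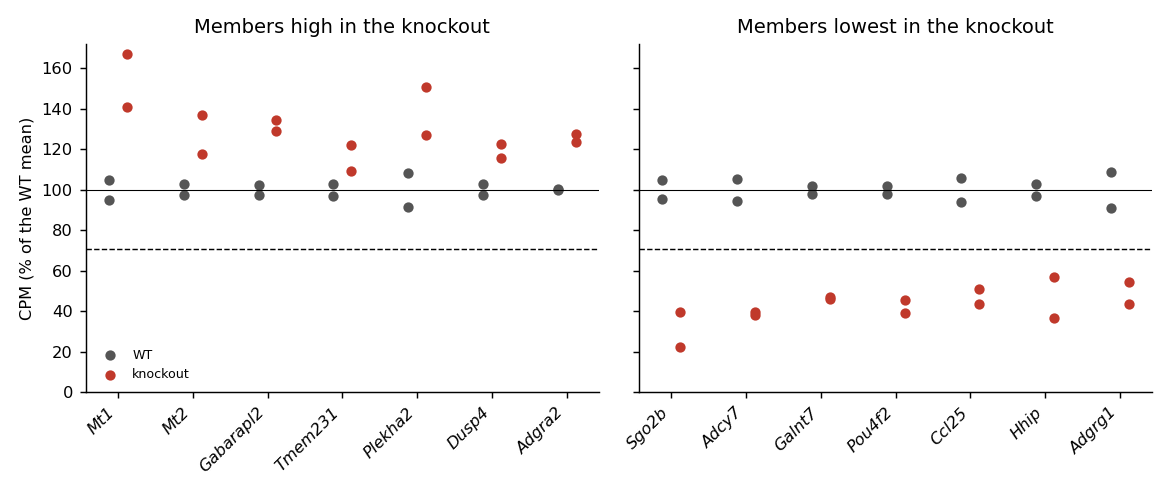
CPM of single libraries as a percentage of the WT mean (y axis) for 7 genes that were high in the knockout (left) and for 7 of the lowest genes with a mean of at least 50 counts (right), 2 libraries of each genotype. The solid line is the WT mean and the dashed line the median shift of 70.8%. On the left every knockout library lies above both WT libraries, and on the right every knockout library lies below the dashed line.

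By function, the shift ran through every list that was read. The lists, 15 in number, held 294 of the 687 genes, and their medians ranged from -0.62 (adhesion and cytoskeleton) to -0.30 (stress-inducible), beside -0.50 for all 687. In 10 of the 15 lists every gene had a value below 0. The counts called lower in the lists stand beside 63.3% of all 687 genes and 5.21% of all genes tested. Among the 687 genes, the share called lower went from 26.2% in the lowest tercile of mean count to 89.96% in the highest. The part of expression level in the differences between lists was not tested. No list is called particular from these medians or from its share called lower.

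Genes that copy and divide the genome lay close to the median. In the list of DNA replication and repair, 17 of 22 genes were called lower and 0 higher, with a median of -0.48. The lowest was Wrn, the helicase of Werner syndrome, with 425 and 492 counts in WT and 322 and 247 in the knockout (-0.79, SE 0.13). The highest was Cdt1, the licensing factor of replication origins, with 3019 and 3465 counts in WT and 2874 and 2973 in the knockout (-0.25, SE 0.09, not called). All 11 genes of mitosis and the centrosome were called lower, and the lowest was Tubgcp3, of the gamma-tubulin complex (-0.70).

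Genes of chromatin and transcription were read in a pair of lists. Of 28 genes of chromatin and general transcription, 24 were called lower. Chd9, a chromatin remodeler, was lowest, with 2313 and 2047 counts in WT and 1514 and 1093 in the knockout (-0.86, SE 0.14). Irf2bp2, a corepressor, was highest, with 605 and 692 counts in WT and 654 and 613 in the knockout (-0.14, SE 0.10). Of 17 DNA-binding transcription factors, 8 were called lower, from Nfatc3, a calcium-regulated factor (-0.79), to Pbx4, a homeodomain cofactor (-0.13). The Zfp zinc finger genes, 23 in number, had a median of -0.55, and 14 were called lower.

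Genes that make and destroy RNA and protein were mostly called lower, and 63.3% of all 687 genes were. In RNA processing and decay, 28 of 29 genes were called lower, with a median of -0.55. The exception was Sugp1, a splicing factor, with 1011 and 1229 counts in WT and 942 and 1068 in the knockout (-0.25, SE 0.10). Its relative Sugp2 was the lowest of the list, with 1018 and 1165 counts in WT and 687 and 692 in the knockout (-0.76, SE 0.10). In ribosome assembly 10 of 11 genes were called lower, with a median of -0.59, from Tma16 (-0.78) to Ddx49, an RNA helicase (-0.33). In translation and tRNA biology 11 of 13 were called lower, and the lowest was Tarbp1, a tRNA methyltransferase (-0.74). In the proteasome and ubiquitin list 18 of 21 were called lower, and Fbxw9, an F-box protein, was the highest (-0.25).

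Organelle genes showed the same pattern. In the mitochondrial list 17 of 20 genes were called lower, from Cyb5b, the cytochrome b5 of the outer membrane (4449 and 4943 counts in WT, 2998 and 2739 in the knockout, -0.81, SE 0.09), to Mpv17l2 (-0.24). In membrane traffic and autophagy 23 of 31 were called lower, 1 higher (Gabarapl2) and 7 neither, and Snx25, a sorting nexin, was lowest (-0.97). In the list of protein folding and the endoplasmic reticulum 11 of 13 were called lower, from Bag4, an Hsp70 cochaperone (-0.68), to Clgn. Of 27 genes of metabolism, transport and the lysosome, 19 were called lower.

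Adhesion and signalling genes were read as separate lists. Of 20 genes of adhesion and the cytoskeleton, 12 were called lower, from Pdlim3, a protein of actin fibers (26 and 30 counts in WT, 10 and 16 in the knockout, -1.20, SE 0.34), to Bcar1, the focal adhesion scaffold p130Cas (1363 and 1628 counts in WT, 1485 and 1487 in the knockout, -0.11, SE 0.09). Of 23 signalling genes, 13 were called lower and 0 higher, and Hhip was the lowest. The 16 long noncoding RNAs had a median of -0.51, with 4 called lower, and the Slc transporters, 16 in number, had a median of -0.48.

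Many proteins of chromosome 8 work in complexes whose other subunits are encoded elsewhere. In 15 complexes, 26 subunits were among the 687 genes and 116 subunits lay on other chromosomes. The chromosome 8 subunits had a median of -0.53, and 23 of 26 were called lower, beside 63.3% of all 687 genes. The partners had a median of 0.02. Of the 116 partners, 2 (1.72%) were called lower and 0 higher, beside 5.21% and 4% of all genes tested. The partners are no members of the chromosome, but they come from the same contrast, so this is a description.

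Replication complexes were among the 15. Mcm5, a subunit of the replicative MCM helicase, had 12189 and 14332 counts in WT and 10541 and 10396 in the knockout, a log2 fold change of -0.44 (SE 0.08), while the 5 other MCM subunits lay between -0.04 and 0.18. The GINS complex of the same helicase has 3 of its 4 subunits on chromosome 8. Gins3 was at -0.72, Gins2 and Gins4 at -0.37, and Gins1 on chromosome 2 at 0.04. Orc6, of the origin recognition complex, was at -0.53, and its 5 partners lay between -0.12 and 0.10.

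The telomere-binding shelterin complex also has 3 subunits on chromosome 8. Acd was called lower at -0.53, while Terf2ip (-0.36, SE 0.11) and Terf2 (-0.33, SE 0.10) were not called. Terf1, Tinf2 and Pot1a on other chromosomes lay between -0.13 and 0.18. In the COG complex, which tethers vesicles in the Golgi, Cog2 (-0.79), Cog4 (-0.68) and Cog8 (-0.61) lay below all 5 partners.

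In RNA decay, Cnot1 and Cnot7 of the CCR4-NOT deadenylase were at -0.73 and -0.58, and the 8 partners lay between -0.31 and 0.08. Cnot1, the scaffold of that complex, had 12202 and 11439 counts in WT and 8955 and 6442 in the knockout, so that the knockout libraries differed. Lsm1, Lsm4 and Lsm6, of the ring of LSM proteins that binds RNA ends, lay between -0.70 and -0.50, and their 5 partners between -0.07 and 0.17. Psmd7 was at -0.42, and the 30 other proteasome subunits lay between -0.17 and 0.15.

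In 14 of the 15 complexes every chromosome 8 subunit lay below every partner. The exception was the coatomer of COPI vesicles. Cope had 1006 and 1266 counts in WT and 1036 and 1077 in the knockout (-0.20, SE 0.10, not called), while its partner Copg2 on chromosome 6 had 2241 and 2427 counts in WT and 1495 and 1560 in the knockout (-0.71, SE 0.09). The other partner called lower was Cdc27 of the anaphase-promoting complex (-0.39, SE 0.10), which still lay above Anapc10 (-0.49) and Cdc16 (-0.69). Copg2 and Cdc27 were named after their values had been seen.

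**Figure D5:**
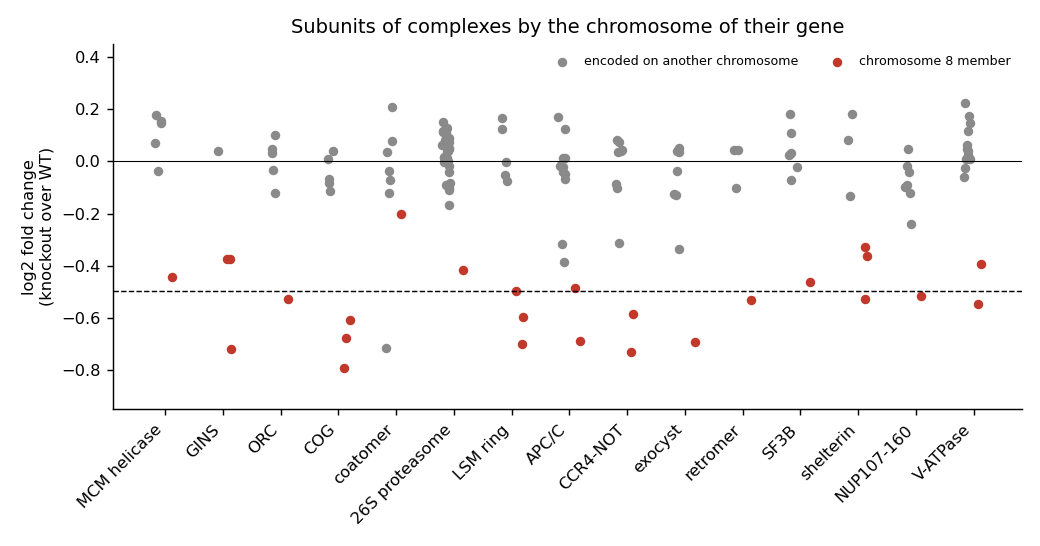
log2 fold change (knockout over WT, y axis) of single subunits of 15 complexes (x axis), with the 26 subunits encoded on chromosome 8 in red and the 116 encoded on other chromosomes in gray. The dashed line is the chromosome 8 median of -0.50. The red points lie below the gray points in all complexes except the coatomer.

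Other differences ran along the same division of libraries. The 6 Y-linked genes that were read summed to 123 CPM in each WT library and to 5.70 and 6.34 CPM in the knockout libraries. The 8 fibroblast markers summed to 15.2 and 12.6 CPM in WT and to 28.6 and 28.7 CPM in the knockout, with Lum at 0 in every library and Dcn at 0 to 2 counts. The part of these differences in the shift or in the genes that left it was not tested. Spans of 175 of the 687 genes (25.5%) overlapped another gene, and the use of strand in counting is not given in the sources used here. The median was -0.49 for these genes and -0.50 for the others. The 20 chromosome 8 genes that were left out had a median of -0.44.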

How the data were processed

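The authors deposited raw read counts per gene (1 row per Entrez gene, 1 column per library), made by aligning reads to mm10 with QuasR and HISAT2 and counting over UCSC Known Genes. The submitters' processing notes name HISAT2 and bcl2fastq 2.17. Reads came from a TruSeq poly(A) kit. Depth was 13771642 to 15608803 counts per library.

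Rows were matched by Entrez identifier to RefSeq positions in GRCm38 (24570 of 24594). Genes passing filterByExpr (13840) were fitted in edgeR 4.0.16 (TMM, legacy quasi-likelihood, genotype as the only term, Benjamini-Hochberg over all genes). SE came from the fold change and the F statistic. The common biological coefficient of variation was 7.45%. A second fit took the chromosome 8 median as an offset. Member CPM used TMM-scaled library sizes, and marker CPM used total counts. Both fits were tested on simulated data with known changes. Same-numbered libraries deviated together with r = 0.20 across genes, and 2 pairs do not establish a pairing, so no block was used. Promoters were matched for 482 of 687 genes (70.2%), so no promoter feature was compared across genes.

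Genes were named by a rule: the 8 highest and 8 lowest with a mean of at least 50 counts, the 5 most abundant per kb in WT, the 3 nearest the median, both ends of each function list, and complex subunits. Further genes, named for the calls or groups they belong to, were chosen after their values had been seen. Some genes that the rule names are not reported here. The genes and lists were chosen with earlier results of these data known. Alternatives were other scalings (RLE, upper quartile, library size, TMM without chromosomes 8 and Y), DESeq2 1.42.0, other count filters, the edgeR 4 fit, a replicate block and leaving out each library. In a genotype left with 1 library, that library was assumed to vary like the other genotype.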

Additional observations from a re-analysis of the deposited data

How the results depend on the processing

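The median of the chromosome 8 genes stayed below 0 under every alternative that was run. It was -0.47 with upper-quartile factors and -0.48 with library size alone, and relative to the other chromosomes it stayed between -0.52 and -0.50 in all of these. Leaving out each library gave medians between -0.51 and -0.49, an IQR between 0.25 and 0.33, 35 to 44 genes at 0 or more, 315 to 448 called lower, 2 to 4 called higher, 10 to 20 past the study's threshold and 16 to 70 called off the shift. DESeq2 found 4 genes past the study's threshold and 16 off the shift, and left 9 genes without an adjusted p-value. With at least 1 count in place of filterByExpr, 2 genes were called higher and 19 off the shift. Requiring at least 100 counts in every library left 532 genes. Of these, 14 were at 0 or more and 1 was past the study's threshold, and the IQR was 0.22. With the replicate number as a block, which the labels do not show to pair the libraries, 14 genes passed the study's threshold and 145 were called off the shift, all 29 of the first fit among them. The cause of these changes was not tested. Upper-quartile scaling moved the share of higher calls among all genes called from 43.4% to 49.9%. Of 864 values of named genes, 0 changed sign among called values, 837 moved by less than their spread and 27 by more, 19 of these on leaving out a library. Depth limits the lowest tercile of mean count most, where replicate ratios were widest.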
